A study of Mus musculus with 5 samples.

Results

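The 8 genes described here belong to the Lin28 and let-7 circuit: Lin28a, Lin28b, Trim71, Hmga2, Arid3a, Igf2bp1, Igf2bp2 and Igf2bp3. They were chosen by name, with earlier results of these data known, and each has 1 row among the 53927 genes of the deposited table. Their RNA was measured in cultured mouse nephron progenitors (C57BL/6J strain), embryonic precursors that renew themselves and form the nephrons of the kidney, after 1 passage. Cells of 2 libraries were Dis3l2+/+ (WT) and cells of 3 libraries were Dis3l2-/- (KO), null for an exoribonuclease. Libraries were stranded total RNA, read from a single end. Levels are the authors' CPM, reads scaled to an effective library size, and the reads assigned per library came to between 19.6 and 49.3 M. The labels name no embryo or litter for any library, so the p-values reflect the spread among these 5 libraries, which may be technical.

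In this circuit the RNA-binding proteins Lin28a and Lin28b hold the loop of the let-7 precursor and recruit the uridyl transferases Tut4 and Tut7, which add a tail of uridines. Dis3l2 degrades the tailed precursor. Mature let-7 in turn represses the mRNAs of Lin28a, Lin28b, Trim71, Hmga2, Arid3a and the Igf2bp genes, so that these fetal genes are high where let-7 is low. Lin28 is known in the kidney for prolonging the formation of nephrons when it is kept on, and the loss of DIS3L2 in people causes Perlman syndrome, with overgrowth and Wilms tumour. The comparison of KO with WT therefore bears on whether the let-7 side of the circuit differs without the nuclease.

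The let-7 sequences are shown because their seed is what the 8 genes share. RefSeq (GRCm38.p6) gave 9 mature let-7 and miR-98 sequences for 12 loci, all with the seed GAGGUAG at bases 2 to 8, in capitals below.
let-7a: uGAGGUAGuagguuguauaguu
let-7b: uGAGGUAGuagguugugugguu
let-7c: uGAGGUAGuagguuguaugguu
let-7d: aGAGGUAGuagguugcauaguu
let-7e: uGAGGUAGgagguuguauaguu
let-7f: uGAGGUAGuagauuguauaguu
let-7g: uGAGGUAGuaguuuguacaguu
let-7i: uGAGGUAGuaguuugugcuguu
miR-98: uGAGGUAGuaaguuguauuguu
The members of the family differ from each other outside the seed.

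Lin28 holds the precursor through GGAG in the loop. Between the 2 arms, 9 of the 12 hairpins held GGAG. The hairpins of let-7g (Mirlet7g, chr9:106178840-106178927, plus strand) and let-7b (Mirlet7b, chr15:85707319-85707403, plus strand) are shown as an example with the motif, in capitals, and one without it.
Mirlet7g: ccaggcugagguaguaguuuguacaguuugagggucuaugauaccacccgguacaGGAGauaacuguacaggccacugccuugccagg
Mirlet7b: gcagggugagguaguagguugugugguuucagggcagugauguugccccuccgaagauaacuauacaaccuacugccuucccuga

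All 8 genes held the seed's complement, CTACCTC, in the 3' UTR. It was searched on the transcript strand alone, in the coding transcript with the longest 3' UTR (GENCODE M21, GRCm38). Of 21027 genes with a 3' UTR, 9.02% held it at least once and 12 held it 4 or more times, and 4 of these 12 were Hmga2, Igf2bp1, Lin28b and Trim71. The 8 genes held 22 matches together, of which 14 were followed by an A, the fullest form of a let-7 site. The genes are known let-7 targets, so the matches describe them and test nothing. Hmga2 had 4 matches in 3014 bases of 3' UTR, as many as 0.123% of the 2438 genes whose 3' UTR was of like length (0.8 to 1.25 times its own) had, and 16.0% of those genes had any. Trim71 had 4 in 5512 bases, all followed by A, Igf2bp1 had 4 in 6337 bases, and Lin28b had 4 in 4445 bases. Lin28a and Arid3a had 2 each, while Igf2bp2 and Igf2bp3 had 1 each, and 12.1% and 13.3% of genes of like length had at least 1.

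One match for each gene whose level could be compared is printed in its 22 base window, with the match and a following A in capitals.
Hmga2 (chr10:120364224-120364245, minus strand): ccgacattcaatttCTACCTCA
Trim71 (chr9:114512472-114512493, minus strand): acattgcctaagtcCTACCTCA
Arid3a (chr10:79953896-79953917, plus strand): aggcaagtttctttCTACCTCA
Igf2bp1 (chr11:95961778-95961799, minus strand): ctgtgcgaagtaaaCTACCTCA
Igf2bp2 (chr16:22059473-22059494, minus strand): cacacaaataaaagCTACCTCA
Igf2bp3 (chr6:49086787-49086808, minus strand): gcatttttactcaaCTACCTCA
The other 3 matches of Hmga2 were followed by a base other than A.
Hmga2, second match: cccactcctcaataCTACCTCt
Hmga2, further match: tgatttgcaaggaaCTACCTCc
Hmga2, last match: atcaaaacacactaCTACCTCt

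Dis3l2, the gene named in the genotypes, was lower in each KO library, with 6.50, 4.93 and 4.70 CPM against 16.0 and 12.2 CPM in WT. Its log2 difference of -1.24 (standard error 0.21) did not pass over all genes (unadjusted p = 0.000616, adjusted p = 0.954, limma with Benjamini-Hochberg adjustment), and the deleted exons are not named in the sources used here. Some libraries differed in other ways. Xist, the RNA made from an inactive X chromosome, was low in WT replicate 1 and KO replicate 3 (0.93 and 0.52 CPM) and at 765 to 951 CPM in the other 3 libraries. Mitochondrial ribosomal RNA took 40.7% and 38.9% of the values of the WT libraries and 31.6% to 32.9% of those of the KO libraries, and Rn7sk, a small nuclear RNA, took 2.27% to 11.9%, the most in KO replicate 1.

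Both Lin28 genes were under the level of 3 reads, used as a floor, in all 5 libraries, while their downstream genes were measurable. Lin28a (chr4:134003330-134018841, minus strand) had 0 reads in both WT libraries, 1 read each in KO replicates 1 and 2, and 0 in KO replicate 3. Lin28b (chr10:45376620-45486395, minus strand) had 2 reads in WT replicate 1 and 0 in the other 4 libraries. The floor corresponds to between 0.0639 CPM in the deepest library and 0.141 in the shallowest, so neither gene was detectable above that level at this depth, and no fold is given. In the authors' deposited table Lin28b had an unadjusted p of 0.041 with an FDR of 1 and Lin28a a p of 0.215, each resting on 2 reads in all. The pluripotency genes Pou5f1 and Sox2, which accompany Lin28a in embryonic stem cells, were listed at 0 in every library. Nanog, another pluripotency gene, had between 0.09 and 0.14 CPM, near that floor.

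The other 6 genes kept 1 order of level per length in all 5 libraries: Hmga2, then Igf2bp2, Igf2bp1, Trim71, Arid3a and Igf2bp3. In WT, Hmga2 averaged 11.5 ± 0.98 CPM per kb of exon (SD, n = 2), Igf2bp2 6.97 ± 0.13 and Igf2bp1 5.01 ± 0.42. Trim71 averaged 2.64 ± 0.99, Arid3a 1.40 ± 0.14 and Igf2bp3 0.254 ± 0.109 CPM per kb. Dividing by the length of the single transcript used for the let-7 matches gave the same order in 5 of 5 libraries. The neighbours Trim71 and Arid3a came close in KO replicate 2, with 2.11 and 2.02 CPM per kb, a gap within counting error. All counting intervals given here are exact Poisson intervals at 95% and cover counting error only.

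**Figure D1:**
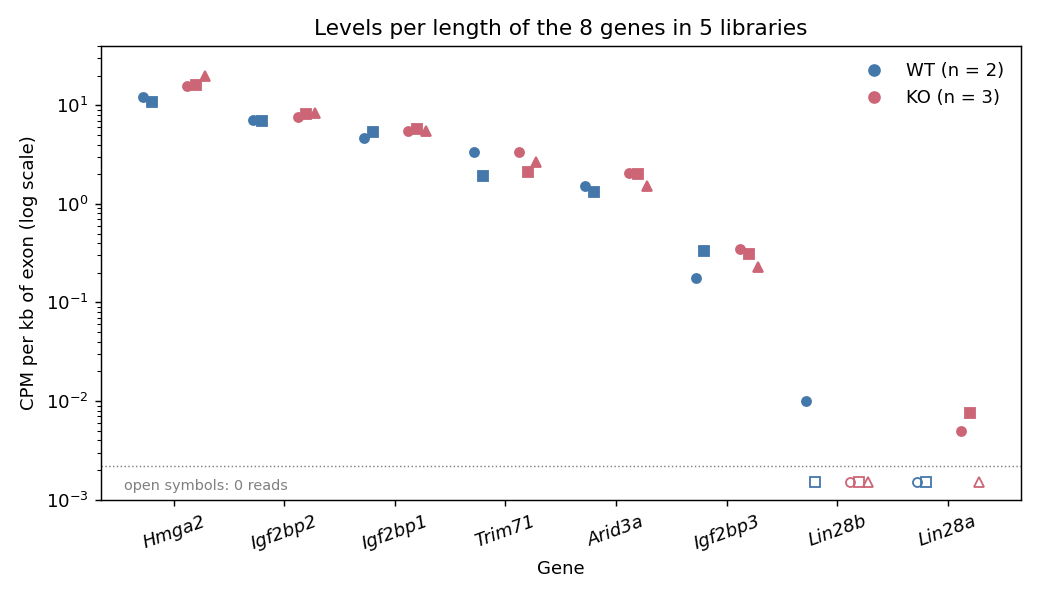
Level of each of the 8 genes in CPM per kb of exon (log axis) in the 2 WT and 3 KO libraries, 1 symbol per library with the shape giving the replicate (circle 1, square 2, triangle 3). Open symbols below the dotted line stand for 0 reads. Hmga2 is highest in every library, Igf2bp3 lowest of the 6 measurable genes, and Lin28a and Lin28b reach at most 2 reads.

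None of the 6 measurable members passed the test of KO against WT (limma on log2(CPM + 1), Benjamini-Hochberg adjustment over 14884 genes, threshold 0.05), where 0.00672% of all genes tested did. At an unadjusted p under 0.05 there was 1 of the 6, Hmga2, against 2.77% of all genes in either direction and 1.5% in its own, higher in KO. The KO libraries did not overlap the WT libraries and stood higher for 4 of the 6, namely Hmga2, Arid3a, Igf2bp1 and Igf2bp2, against 7.85% of all genes tested. They stood lower without overlap for 0 of the 6, against 6.98% of all genes. These counts are for the CPM as deposited. Rescaled to a plain sum, the WT and KO libraries of Igf2bp1 overlapped, and the counts were not repeated under the other scalings. The fitted difference was above 0 for 6 of the 6, against 52.9% of all genes, but that of Trim71 turned negative when the CPM were rescaled without mitochondrial genes and Rn7sk (-0.0067). The median log2 difference of the 6 was 0.19, against 0.012 over all genes. In the authors' deposited table all 8 members had an FDR of 1, where 0.0315% of all genes had one under 0.05.

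Hmga2 encodes an architectural chromatin protein that binds AT-rich DNA and is abundant in fetal and stem cells. It lies on chr10:120361275-120476469 (minus strand). The WT libraries held 82.8 and 73.4 CPM of it, and the KO libraries 105, 108 and 134. All 3 KO libraries were above both WT libraries, KO replicate 3 the highest, and the gap was wider than counting error, whose bounds ended at 86.8 CPM in the higher WT library and began at 103 CPM in the lowest KO library. The means were 78.1 ± 6.63 (SD, n = 2) and 116 ± 15.6 CPM (SD, n = 3), 1.48 times higher in KO. The log2 difference was 0.55 with a standard error of 0.15 and a 95% interval from 0.19 to 0.92. It did not pass over all genes (unadjusted p = 0.00884, adjusted p = 1.00, limma), and 3.31% of all genes tested had a difference at least as large in either direction. Rescaled without mitochondrial genes and Rn7sk, the log2 difference was 0.49.

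The difference in Hmga2 had 1 sign in every setting tried, from 0.45 without KO replicate 3 to 0.64 without WT replicate 1. Among the libraries with high Xist (WT replicate 2, KO replicates 1 and 2) the log2 difference was 0.53, and between those with low Xist (WT replicate 1, KO replicate 3) it was 0.68. Ratios within a library do not depend on how libraries are scaled. They reuse the Hmga2 values given above and are not separate support. Hmga2 over Igf2bp2 in CPM was 1.59 and 1.44 in WT and 1.87, 1.80 and 2.17 in KO, without overlap. Hmga2 over Igf2bp1 was 1.82 and 1.43 in WT and 1.99, 1.95 and 2.54 in KO. Hmga2 over Trim71 was 2.65 and 4.06 in WT and 3.34, 5.47 and 5.42 in KO, and here the genotypes overlapped. Genes on or within the Hmga2 locus, the antisense RNAs 1700006J14Rik and 9230105E05Rik and the intronic Mir763, had at most 0.51 CPM.

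**Figure D2:**
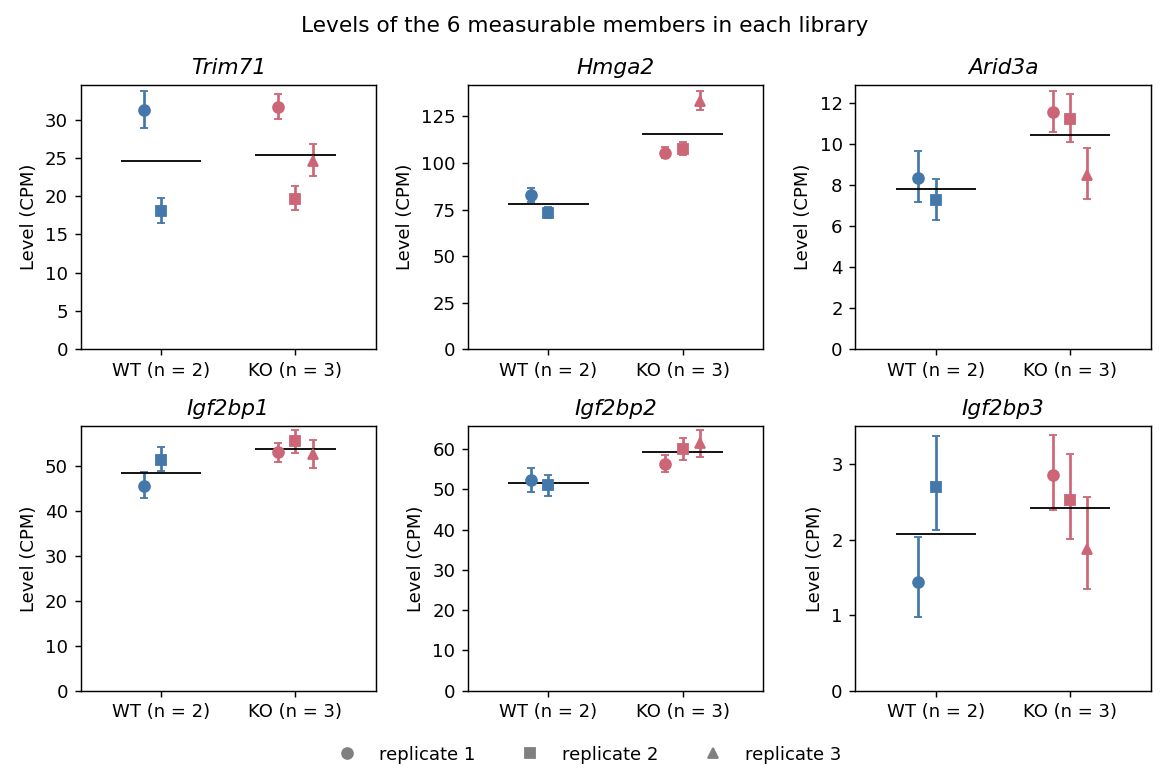
Level in CPM of the 6 measurable genes in each library, WT (n = 2) left and KO (n = 3) right, on linear axes that start at 0. Error bars are 95% counting intervals, horizontal lines are group means and the symbol gives the replicate number. The KO libraries of Hmga2 all lie above 103 CPM and the WT libraries below 87, while those of Trim71 overlap.

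Arid3a encodes a DNA-binding protein with an AT-rich interaction domain and is another let-7 target. It lies on chr10:79927043-79955018 (plus strand). WT libraries held 8.35 and 7.27 CPM, and KO libraries 11.6, 11.3 and 8.51. KO replicates 1 and 2 stood apart from WT, and KO replicate 3 lay within counting error of WT replicate 1. The log2 difference was 0.37 with a standard error of 0.19 (unadjusted p = 0.0967, adjusted p = 1.00, limma). It was 0.59 among the libraries with high Xist and 0.024 between those with low Xist.

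Trim71, the vertebrate counterpart of the worm gene lin-41, encodes a ubiquitin ligase and RNA-binding protein that represses mRNAs in early embryonic cells. It lies on chr9:114507133-114564369 (minus strand). It varied within each genotype, at 31.2 and 18.1 CPM for WT against 31.6, 19.7 and 24.6 for KO. Replicate 1 of each genotype was high and replicate 2 low, and the counting intervals of the 2 WT libraries, 28.9 to 33.7 and 16.6 to 19.7 CPM, did not overlap. The log2 difference between genotypes was 0.061 with a standard error of 0.28 and a 95% interval from -0.60 to 0.72, which covers both directions (unadjusted p = 0.833, adjusted p = 1.00, limma). Its sign was negative without WT replicate 2 (-0.32) or without KO replicate 1 (-0.11). Within the libraries of low Xist it was -0.33, and within those of high Xist 0.44.

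The progenitor markers, set beside Trim71, did not all follow its course over the libraries. Their summed level (13 genes) was 1091 and 848 CPM for WT against 1082, 878 and 988 for KO, the order of Trim71 apart from its top 2. Itga8 and Eya1 made up most of that sum, and of this pair only Eya1, at 274 and 168 CPM for WT against 248, 194 and 221 for KO, was lowest where Trim71 was lowest. Itga8, an integrin, was at 441 CPM in WT replicate 2, where Trim71 was lowest, and at 438 in WT replicate 1. Osr1 was highest in KO replicate 2 (64.6 CPM, against 22.3 in WT replicate 1) but, like Trim71, lowest in WT replicate 2 (19.5 CPM). Cited1, Sall1, Wt1, Tmem100, Hoxd11 and Gdnf were also lowest there, while Six2, Pax2, Meox1, Crym and Itga8 were lowest elsewhere. Itga8 and Eya1 were picked with their values in view. The part of cell composition in the level of Trim71 was not tested. In these bulk libraries fewer cells of a type and less RNA per cell cannot be told apart.

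The 3 Igf2bp genes encode a family of proteins with RRM and KH domains that bind Igf2 and many other mRNAs and affect their stability, transport and translation. Igf2bp1 (chr11:95957163-96005940, minus strand) had 45.6 and 51.4 CPM for WT against 53.0, 55.4 and 52.5 for KO. Its KO libraries lay above both WT libraries, but the counting interval of WT replicate 2 overlapped those of all 3 KO libraries, and without WT replicate 1 the log2 difference of 0.15 (standard error 0.12, adjusted p = 1.00, limma) became 0.061. Igf2bp2 (chr16:22059009-22163299, minus strand), which Hmga2 is known to activate, had 52.3 and 50.9 CPM for WT against 56.4, 59.9 and 61.4 for KO. Here too the KO libraries stood above WT, and KO replicate 1 was within counting error of WT replicate 1. Its log2 difference was 0.19 with a standard error of 0.12 and a 95% interval from -0.090 to 0.48 (unadjusted p = 0.149, adjusted p = 1.00, limma).

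Igf2bp3 (chr6:49085223-49214957, minus strand) was the least abundant of the family. It had 1.44 and 2.70 CPM for WT against 2.86, 2.53 and 1.88 for KO, so the genotypes overlapped. These rest on 31 and 77 reads in WT and on 134, 81 and 40 in KO, and the log2 difference of 0.18 (standard error 0.24) was -0.12 without WT replicate 1. Its 3' end overlaps Malsu1 on the other strand by 1529 bases, and Malsu1 had 9.17 to 11.3 CPM. The sources used here do not say whether reads were counted by strand, so the level of Igf2bp3 is uncertain.

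The makeup of the family overlapped between genotypes. Per kb of exon, Igf2bp2 made up 59.1% and 55.0% of the summed Igf2bp level in WT and 56.7%, 57.3% and 59.5% in KO. Igf2bp1 made up 39.4% and 42.4% for WT against 40.7%, 40.5% and 38.9% for KO. Igf2bp3 made up the rest, at most 2.64% in any library. By single transcript length the share of Igf2bp2 was 65.9% to 70.2% over the 5 libraries.

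**Figure D3:**
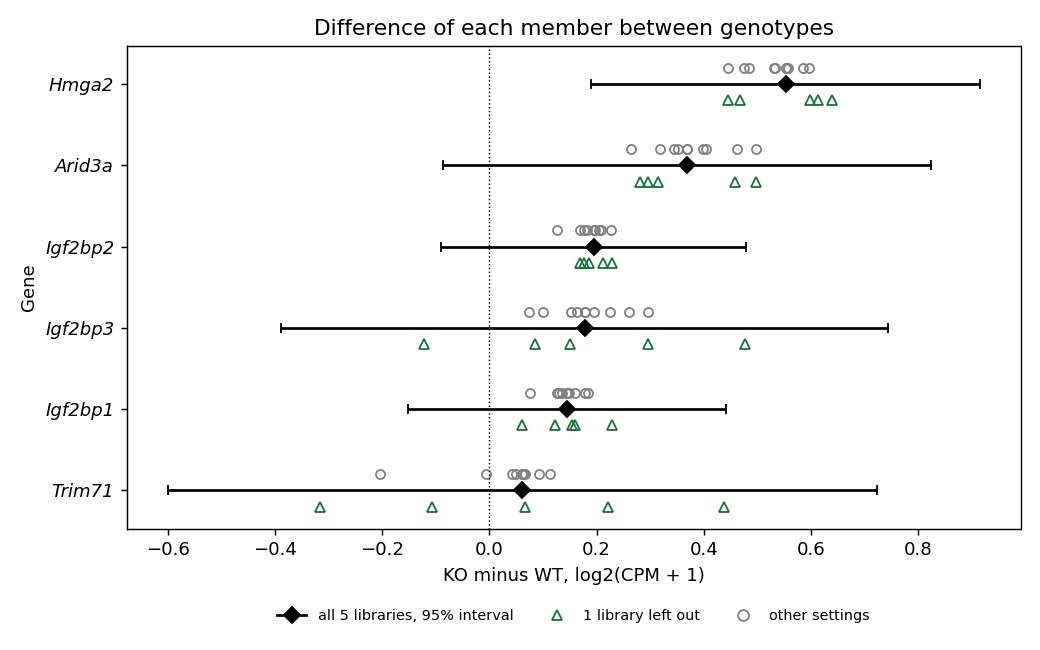
Difference between KO and WT on the log2(CPM + 1) scale for each of the 6 genes. Diamonds with bars are the fit of all 5 libraries with its 95% interval, triangles leave out 1 library each and circles are the other settings. The interval of Hmga2 runs from 0.19 to 0.92 and those of the other 5 genes include 0.

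Genes with the most similar course over the 5 libraries were sought by the root mean square difference of centred log2(CPM + 1) values, among 9463 genes with a mean of at least 5 CPM. For Trim71 these were Elovl2 (0.074) and Alcam (0.083), a cell adhesion gene, which had 374 and 236 CPM for WT against 360, 270 and 310 for KO. For Hmga2 they were Fam19a1 (0.081) and Akap6 (0.093), and for Arid3a Wdtc1 (0.025) and Plekho1 (0.033). For Igf2bp1 they were Iqgap1 (0.019) and Tusc2 (0.022), for Igf2bp2 Zdhhc5 (0.028) and Mast2 (0.029), and for Igf2bp3 Notch3 (0.043) and Pigt (0.059).

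Of the 13 genes that make, tail and degrade let-7, 1 stood lower in KO without overlap, against 6.98% of all genes tested. It was Dis3l2, for which the KO cells are null, so this share does not describe the other genes. Drosha stood higher without overlap, 1 of 13, a share near the 7.85% of all genes tested. Of the 13, 4 were higher and 9 lower in KO and none passed over all genes (1 at an unadjusted p under 0.05, Dis3l2), with a median log2 difference of -0.022. The uridyl transferase Tut4 (listed as Zcchc11) had 68.4 and 65.4 CPM for WT against 65.4, 58.9 and 77.5 for KO. Tut7 (listed as Zcchc6) had 94.9 and 97.1 CPM for WT against 85.3, 92.2 and 99.7 for KO, so both overlapped between genotypes. Dgcr8, the partner of Drosha, averaged 54.5 ± 7.44 CPM for WT against 48.9 ± 2.79 for KO, with overlap. Drosha, which cuts the primary transcript, averaged 31.2 ± 2.43 CPM (SD, n = 2) for WT against 34.4 ± 2.48 (SD, n = 3) for KO, and its lowest KO library (32.97 CPM) was barely above its higher WT library (32.93). Prkra, a partner of Dicer, had 24.2 ± 2.55 and 26.8 ± 1.22 CPM.

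The let-7 loci themselves gave few reads. Very short RNAs can be lost when such libraries are made, so reads on these rows need not be mature let-7. Over the 12 loci the summed level was 1.96 and 2.79 CPM for WT against 2.27, 1.96 and 2.26 for KO, from 42 to 106 reads a library, and Mirlet7d and Mirlet7i were listed at 0 throughout. The rows of 2 loci with enough signal to be tested gave opposite signs although they lie next to each other on chromosome 13. Mirlet7a-1 had 0.42 and 0.60 CPM for WT against 1.04, 0.81 and 0.85 for KO (log2 difference 0.33, unadjusted p = 0.0614, limma). Mirlet7f-1 had 0.51 and 0.67 CPM for WT against 0.41, 0.47 and 0.28 for KO (log2 difference -0.20, unadjusted p = 0.211, limma). Neither passed over all genes. Of the 12 loci, 1 stood higher in KO without overlap and 3 lower. The shares of all genes tested, 7.85% and 6.98%, cover only genes past the filter, and 2 of the 12 loci passed it. Of these 2, Mirlet7a-1 stood higher and Mirlet7f-1 lower without overlap. The 3 lower loci were Mirlet7f-1, Mirlet7c-2 and Mir98. Mirlet7c-2 and Mir98 rested on at most 10 reads a library and were too low to be tested. The longer host transcripts 2610203C20Rik and Huwe1 averaged 206 and 373 CPM for WT against 196 and 361 for KO.

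Other known let-7 targets did not lean to one side. Of 25 tested, 12 were higher and 13 lower in KO, none passed over all genes (1 at an unadjusted p under 0.05, Hmga1), and the median log2 difference was -0.000605. Of these, 2 stood higher in KO without overlap, a share near the 7.85% of all genes tested. Hmga1, the relative of Hmga2, had 1.02 and 1.55 CPM for WT against 3.50, 2.90 and 1.69 for KO (log2 difference 0.67, standard error 0.26, adjusted p = 1.00, limma). Near-identical copies of Hmga1 may share its reads, so its level is uncertain. Igf1r, the receptor of Igf1 and Igf2, had 88.2 and 83.8 CPM for WT against 94.2, 105 and 98.0 for KO (log2 difference 0.20, adjusted p = 1.00, limma). Irs2, an adapter of that receptor, had a log2 difference of 0.35 and Nr6a1, an orphan nuclear receptor with 8 seed matches, of -0.22, both with overlapping genotypes.

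Genes were also grouped across the transcriptome by the seed match alone. Apart from the members, 10962 tested genes had no match, 1157 had 1 and 162 had 2 or more. Their median log2 differences were 0.017, 0.0074 and 0.022. KO stood higher without overlap for 7.86%, 8.30% and 13.0% of them and lower without overlap for 6.40%, 5.19% and 9.26%, so in the last class, with 21 and 15 genes, both shares were larger; that difference was not tested. Without 1 library at a time the median of that class ran from -0.0083 to 0.052. The 3' UTRs grew with the class, with medians of 1125, 2292 and 3648 bases. Among genes with a 3' UTR over 1913 bases the medians were -0.020 without a match and -0.0099 with one.

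**Figure D4:**
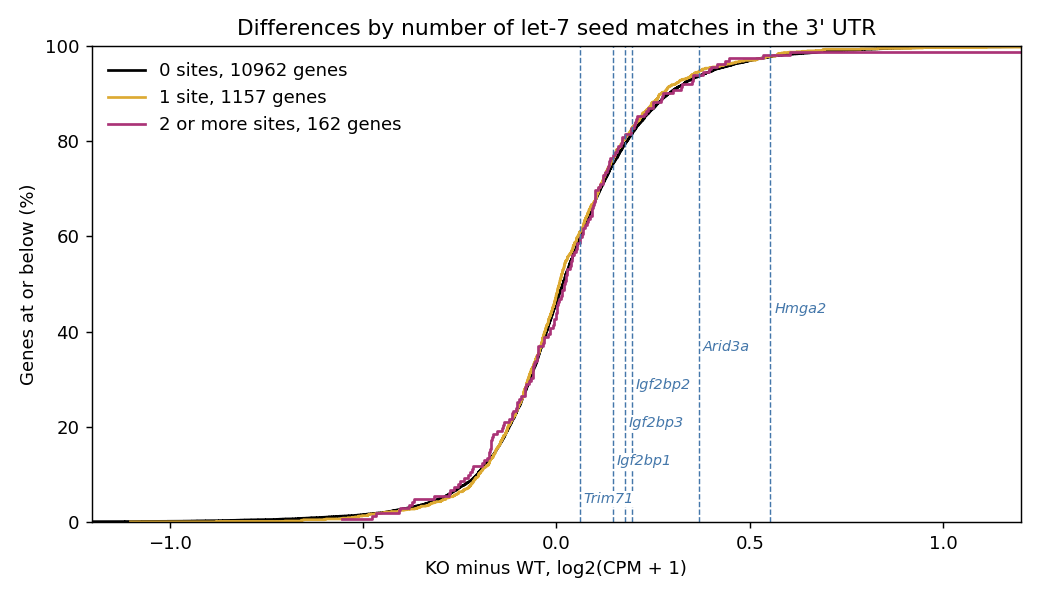
Share of genes (%) at or below each log2 difference of KO against WT, for genes with 0, 1 or 2 or more let-7 seed matches in the 3' UTR, with the 6 measurable members as dashed lines. Differences beyond 1.2 in size are outside the axis. The 3 curves nearly coincide, with medians of 0.017, 0.0074 and 0.022, and Hmga2 lies at 0.55.

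Among 8 tested mRNAs that Igf2bp proteins are known to bind, 5 were higher and 3 lower in KO, and none passed over all genes (2 at an unadjusted p under 0.05, Igf2 and H19), with a median log2 difference of 0.19. The growth factor gene Igf2 had 1.53 and 4.28 CPM for WT against 10.9, 12.8 and 7.29 for KO (log2 difference 1.598, standard error 0.36, adjusted p = 1.00, limma). Its neighbour H19, a noncoding RNA bound by Igf2bp1, had 301 and 1089 CPM for WT against 1285, 3314 and 2165 for KO. Actb, whose mRNA Igf2bp1 carries in neurons and fibroblasts, had 4504 and 4666 CPM for WT against 6196, 6912 and 5293 for KO. For these 3 of the 8 the KO libraries stood above WT without overlap, against 7.85% of all genes tested. Lamb2, a laminin chain, averaged 56.5 ± 1.92 CPM for WT against 71.8 ± 20.03 for KO, with overlap.

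The cells carried progenitor genes, with exceptions. Some of these genes were uneven within WT: replicates 1 and 2 held 15.2 and 1.40 CPM of Cited1, 16.9 and 2.35 of Crym, and 11.96 and 2.42 of Gdnf. Six2, which maintains progenitors, had 18.97 and 18.82 CPM for WT against 31.9, 26.5 and 18.6 for KO, and 12 of 13 progenitor markers could be tested, while Pax2 had at most 0.66 CPM. None of the progenitor markers or of those of other cell types passed over all genes in limma. Over all genes tested, 2.77% had an unadjusted p under 0.05 in limma. None of the 4 endothelial, 3 podocyte, 3 ureteric bud and 1 pluripotent and germ cell markers tested did. In the other lists 4 markers did. Of these, the progenitor gene Osr1 (1 of 12 tested in its list) was higher in KO (log2 difference 0.97). The rest were lower in KO: the stroma gene Pdgfra (-0.65, 1 of 7 tested), the macrophage gene Mrc1 (-0.66, 1 of 3) and the muscle gene Myl1 (-0.83, 1 of 3). Each of their lists held both directions. Higher and lower in KO were 8 and 4 progenitor, 3 and 4 stroma, 1 and 2 leukocyte, and 2 and 1 muscle markers. Summed stroma markers (8 genes, 7 tested) ran from 826 to 1931 CPM in WT and from 889 to 2144 in KO, with Foxd1 at most 0.25. The 5 leukocyte markers summed to 7.21 and 7.65 CPM in WT and to between 4.95 and 5.69 in KO, with Ptprc at most 0.11 CPM. The 5 endothelial markers summed to between 48.8 and 72.9 CPM in WT and between 39.96 and 60.3 in KO. Emcn and Kdr made up most of this sum, with Pecam1 at most 0.70 CPM and Cdh5 at most 0.78. The 5 podocyte markers summed to between 9.65 and 15.7 CPM in WT and between 6.76 and 9.80 in KO. For the 5 ureteric bud markers the sums were between 5.23 and 8.47 CPM in WT and between 7.10 and 13.2 in KO. Those of the 6 skeletal muscle markers were between 106 and 124 CPM in WT and between 112 and 137 in KO. Des made up most of the muscle sums (95.5 to 134 CPM), while Myod1 was at most 0.04 CPM and Myog at most 0.42. The 6 pluripotent and germ cell markers, of which 3 were at 0 everywhere, summed to at most 4.92 CPM. The part of these in the members' values was not tested.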

How the data were processed

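Per the submitters' processing notes, reads were handled with HISAT2 2.1.0, featureCounts and edgeR 3.20.1 on mm10. The annotation release and any use of strand: not given in the sources used here. The authors deposited 1 table, with a signal per library (CPM of an effective library size, rounded), p-values, a likelihood ratio score, and 2 log2 columns, the fold change and the mean CPM. Differences were tested with limma 3.58.1 (R 4.3.3, trend option) on log2(CPM + 1), genotype as the only term, for 14884 genes that reached 0.5 CPM in 2 or more libraries, and p-values are two-sided. Fold changes on this scale understate those of low genes.

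Read counts were taken from the steps of the low values, 22.3 and 28.3 M reads in WT and 49.3, 32.2 and 19.6 M in KO. In each library at least 99.98% of the values above 0 and under 100 CPM lay within 0.0055 CPM of a step. The values are rounded, no count test was run, and read numbers are given as a description. Gene models were GENCODE M21 (GRCm38), with 53360 gene IDs matched apart from the version. Where a symbol had more than 1 row, the most abundant was used. On simulated data for KO against WT (14639 genes) limma recovered 28.0% of genes changed 1.5-fold and 86.0% of those changed 2-fold, with 15 false calls. The simulation gave every gene the same spread beyond counting error (log2 SD 0.19). It held no differences of sex or replicate, so these shares may be too high for the real libraries.

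The members and lists were chosen with earlier results of these data known. Named were the 8 members, Dis3l2, Tut4, Tut7, Igf2, H19, up to 4 genes of each list by smallest p, and 2 genes most like each member; others are named to show a marker's level. The alternatives varied pseudocount, filter, scaling, terms, weights and libraries.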

Additional observations from a re-analysis of the deposited data

How the results depend on the processing

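No member passed in any of the 15 alternatives (0 in each), and the smallest adjusted p of any was 0.0806, for Hmga2 (limma). Hmga2, Arid3a, Igf2bp1 and Igf2bp2 had a positive difference in all 15. Trim71 was negative without mitochondrial genes and Rn7sk in the scaling (-0.0067), with sample weights (-0.20), and when WT replicate 2 (-0.32) or KO replicate 1 (-0.11) was left out, its range over left-out libraries being -0.32 to 0.44. Igf2bp3 was negative without WT replicate 1, with a range of -0.12 to 0.48. The unadjusted p of Hmga2 ran from 0.0028 to 0.0738 and was above 0.05 only without WT replicate 2. Over all genes 1 gene passed in limma (413 at an unadjusted p under 0.05, and between 228 and 3146 under the alternatives), against 0 with a pseudocount of 5, no filter, median-of-ratios scaling or a sex term, 5 with sample weights, and 0 to 8 when 1 library was left out. With a replicate block 390 genes passed and 0 members. Deviations correlated at 0.41 and 0.54 between same-numbered libraries, but no label says what the numbers share, and the block sets KO replicate 3 aside, so its differences equal those without that library. The median difference of all genes was 0.012 as deposited and between -0.049 and 0.039 under the other scalings. Few reads were counted for Lin28a, Lin28b, Igf2bp3 and the let-7 loci, which limits what can be said of them.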
